A study of Mus musculus with 6 samples.

Results

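DNA replication licensing genes encode the proteins that load and start the replicative helicase, together with the clamp that serves the polymerases at the fork. The 10 genes described here are Mcm2 to Mcm7, Cdc6, Cdc45, Gins2 and Pcna. They were chosen by name, with earlier results of these data known. Every probe set annotated to exactly 1 of them was taken. This gave 25 of the 45101 probe sets of the array, or 10 of the 18194 genes it names (a probe set is a set of short probes designed on 1 transcript). Cdc6 and Pcna had 1 probe set each, Mcm2, Mcm4, Cdc45 and Gins2 had 2, Mcm5 and Mcm6 had 3, Mcm7 had 4 and Mcm3 had 5. The arrays were hybridised with RNA from NSP cells of E12.5 mouse brain, which were grown in dishes until confluent, split, infected overnight with a lentivirus carrying a short hairpin RNA (shRNA), and harvested on day 6. A control hairpin was used for 3 samples and a hairpin targeting REST, a repressor of neuronal genes, for the other 3, and the titles number them 1 to 3 in each group. All 6 samples went through lentiviral infection and the same culture steps, and no uninfected sample was used. Nothing in the labels says whether samples were separate cultures or embryos, so the p-values reflect the scatter of these 6 samples alone, and that scatter can be technical.

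In G1 the origin recognition complex, Cdc6 and Cdt1 load rings of the 6 related proteins Mcm2 to Mcm7 onto DNA, which licenses an origin. At the start of S phase Cdc45 and the GINS complex, of which Gins2 is a subunit, join the ring to form the active helicase, known as CMG, and PCNA then holds the polymerases on the template. Transcripts of these genes are driven largely by E2F factors, accumulate in cells that approach S phase, and are low in cells that have left the cycle, so in cultured neural progenitors they are widely used as markers of proliferation.

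The bases before the start sites are shown for 4 of the members, 2 with and 2 without a match to E2F letters. Whether such matches relate to the signals on the arrays was not tested. The sequences come from RefSeq on GRCm38.p6, are written 5′ to 3′ on the gene's strand in lower case, end at the annotated gene's edge or start, and carry E2F matches in capitals.
Mcm5, chr8:75109339-75109467, plus strand: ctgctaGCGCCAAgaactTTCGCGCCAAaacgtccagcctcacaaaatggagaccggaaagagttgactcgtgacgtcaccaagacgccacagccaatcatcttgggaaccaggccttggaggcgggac
Mcm6, chr1:128359706-128359875, minus strand: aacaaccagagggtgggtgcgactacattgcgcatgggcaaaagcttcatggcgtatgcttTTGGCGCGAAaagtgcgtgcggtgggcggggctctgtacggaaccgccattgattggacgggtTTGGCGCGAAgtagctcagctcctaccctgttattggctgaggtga
Mcm2, chr6:88898781-88898950, minus strand: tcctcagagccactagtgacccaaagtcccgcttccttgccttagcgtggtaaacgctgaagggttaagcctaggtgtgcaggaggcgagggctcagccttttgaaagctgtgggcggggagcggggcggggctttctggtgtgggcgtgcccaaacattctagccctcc
Pcna, chr2:132253181-132253337, minus strand: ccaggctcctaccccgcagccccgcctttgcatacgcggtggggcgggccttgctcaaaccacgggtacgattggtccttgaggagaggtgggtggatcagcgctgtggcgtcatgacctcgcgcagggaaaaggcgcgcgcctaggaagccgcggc
The letters searched were TTCCCGC and TTGGCGC as well as TTCGCGC and also TTGCCGC, on both strands, in the 250 bases before and 50 after each start. The promoter table held 8 of the 10 genes, with 2 starts for Mcm7, and Mcm4 and Gins2 were not matched. Of these 8 genes, 5 had a match, namely Mcm3, Mcm5, Mcm6, Mcm7 and Cdc6. Counted by start, 6 of their 9 promoters had a match, against 9.57% of the 32851 promoters of the table. Both stretches capitalised for Mcm6 hold a match of TTGGCGC that overlaps one of TTCGCGC on the opposite strand, and the Mcm3 matches lay after the start. CCAAT, the letters bound by the factor NF-Y, stood in 7 of the 8 genes, and at both starts of Mcm7, against 37.4% of all promoters. The left and right parts of the REST element, searched as TTCAGCACC and GGACAGCGC, stood in none of these windows, against 0.371% and 0.405% of all promoters. A match describes letters and not a bound site, and a missing match covers only these letters in these windows.

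The licensing genes differed more between replicate numbers than between hairpins. On 24 of the 25 probe sets the highest of the 6 arrays was REST shRNA array 2, against 24.4% of all probe sets, and on 24 the lowest was an array numbered 3, against 38.6%. Both arrays numbered 2 lay above the other 4 on 21 probe sets, against 8.98%. Control array 3 was lowest on 20 probe sets and REST shRNA array 3 on 4. No probe set had groups that did not overlap, against 8.25% of all probe sets. Averaged over the brightest probe set of each gene, the 10 genes stood 1.60 above their own means in REST shRNA array 2 and 0.33 above in control array 2 (log2 deviations). They stood 1.06 below in control array 3 and 0.66 below in REST shRNA array 3, while control array 1 was at 0.12 and REST shRNA array 1 at -0.32. The order of the arrays was therefore REST 2, control 2, control 1, REST 1, REST 3, control 3, and single arrays give neighbours in it no error of their own.

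**Figure D1:**
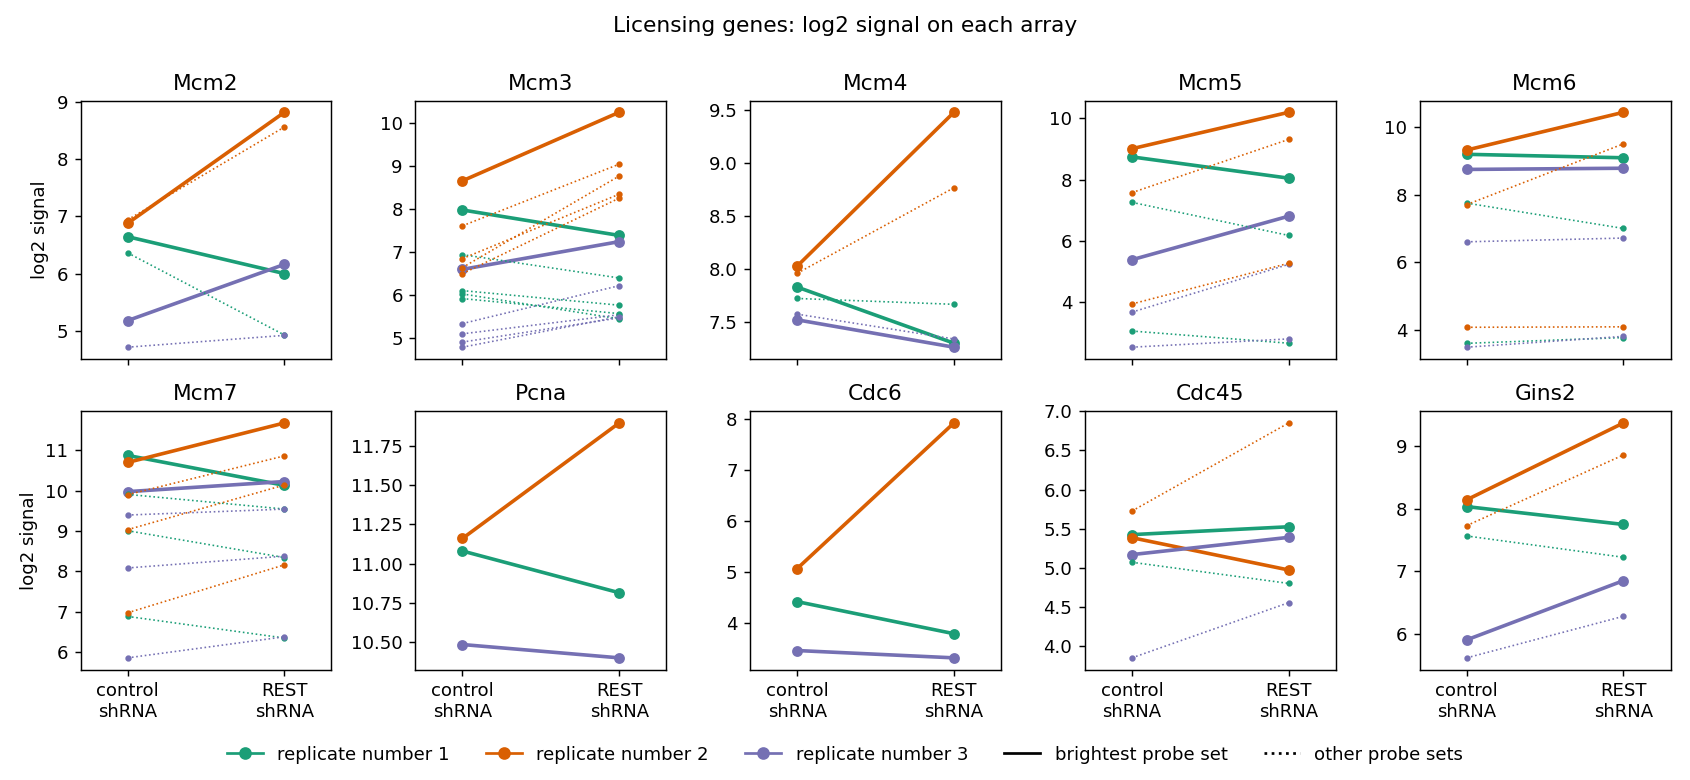
Log2 signal (y axis) of each licensing gene in control and REST shRNA arrays (x axis), with arrays of the same replicate number joined and coloured alike, solid for the brightest probe set and dotted for the others. Number 2 lies on top in REST shRNA except for the brightest Cdc45 probe set, which is lowest there at 4.97.

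Among the helicase genes, Mcm2 read 6.65, 6.88 and 5.18 in control arrays 1, 2 and 3, and 6.00, 8.81 and 6.16 in the REST shRNA arrays of the same numbers (log2 signal, brightest probe set, as for all genes unless said otherwise). REST shRNA array 2 stood alone at the top and control array 3 at the bottom, and the groups overlapped. Mcm3, the subunit that pairs with Mcm5 in the ring, read 7.97, 8.65 and 6.59 in control and 7.38, 10.24 and 7.24 in REST shRNA. Mcm4, part of the catalytic core with Mcm6 and Mcm7, read 7.83, 8.03 and 7.53 in control and 7.31, 9.48 and 7.27 in REST shRNA. Its control arrays lay close together, with an SD of 0.26 (n = 3), while the SD of the REST shRNA arrays was 1.27 (n = 3).

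Mcm5, which with Mcm2 forms the gate of the ring, had the widest measured range of the 10 genes. It read 8.74, 9.01 and 5.39 in control arrays 1, 2 and 3, and 8.05, 10.20 and 6.81 in the REST shRNA arrays, a span of 4.81 on the log2 scale. Both arrays numbered 3 lay below the other 4, as they did on 16 of the 25 probe sets, against 9.64% of all probe sets. Its second probe set spanned 5.64, from 3.68 in control array 3 to 9.31 in REST shRNA array 2.

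Mcm6 read 9.20, 9.33 and 8.75 in control and 9.10, 10.44 and 8.79 in REST shRNA. Mcm7 read 10.88, 10.70 and 9.98 in control and 10.13, 11.68 and 10.23 in REST shRNA. Among the brightest MCM probe sets only that of Mcm7 had control array 1 above control array 2. Other probe sets of Mcm7 did not all share this order, and a dimmer one of Mcm6 had it. On the brightest Mcm7 probe set REST shRNA array 1 lay just below REST shRNA array 3. Apart from REST shRNA array 2, the Mcm6 arrays spanned only 0.57 and the Mcm7 arrays 0.90.

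Cdc6, the loader that brings the MCM ring to the origin, stood out in 1 array. It read 4.43, 5.07 and 3.47 in control arrays and 3.80, 7.92 and 3.32 in REST shRNA arrays 1, 2 and 3. In the pair numbered 2 it was 7.21-fold higher with REST shRNA, whereas the other pairs differed by -0.63 and -0.14 (log2). Its lowest arrays were near the highest of 27 bacterial control probe sets, 3.24, so differences down there are understated. The measured Cdc6 span of 4.60 may thus be too small, and its order against the Mcm5 span of 4.81 is not settled.

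Gins2, of the GINS complex, read 8.03, 8.14 and 5.90 in control and 7.75, 9.37 and 6.85 in REST shRNA, again with both arrays numbered 3 at the bottom. Pcna, the sliding clamp, read 11.08, 11.16 and 10.49 in control and 10.82, 11.89 and 10.40 in REST shRNA. Its span was 1.49, and bright signals can be compressed, so this span is not set against those of dimmer probe sets.

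Cdc45, the helicase cofactor, gave 2 different pictures. Its brightest probe set read 5.42, 5.39 and 5.17 in control and 5.52, 4.97 and 5.39 in REST shRNA, with REST shRNA array 2 lowest. The other, whose annotation cites a RefSeq transcript where that of the brightest does not, read 5.07, 5.73 and 3.85 in control and 4.80, 6.85 and 4.56 in REST shRNA, with array 2 highest. The second followed the remaining members and the first did not. Which of them reads Cdc45 more faithfully was not tested.

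**Figure D2:**
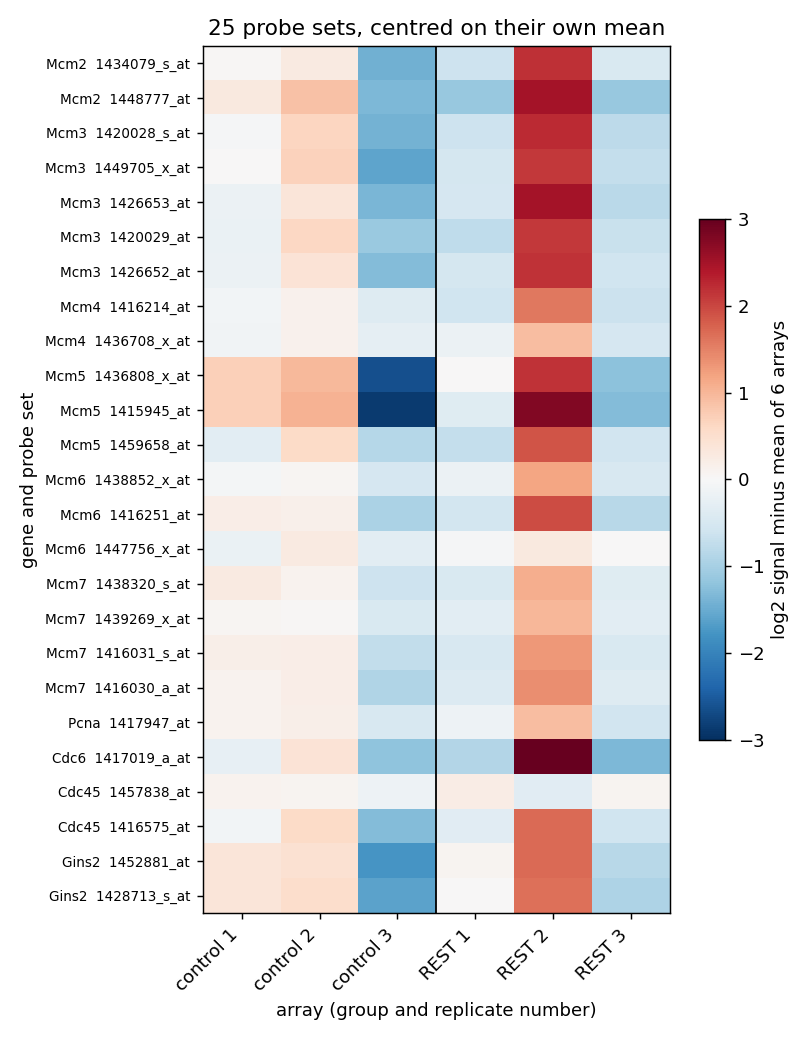
Log2 signal of all 25 probe sets (rows, by gene) on each array (columns), as the deviation from the probe set's mean over 6 arrays, with colours capped at 3 either way. REST shRNA array 2 is above the mean in 24 rows and control array 3 is the lowest array in 20.

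REST shRNA array 2 was highest on all other probe sets of these genes, while the order of the remaining arrays often differed from that of the brightest one. The 5 of Mcm3 had REST shRNA array 2 on top by 1.43 to 2.13 over the next array, and the 4 of Mcm7 by 0.80 to 1.19. The faintest Mcm6 probe set, between 3.49 and 4.10 on all arrays, had it on top by only 0.01. The means of all 25 probe sets exceeded the bacterial control level, and 24 did so on every array, the exception being the faintest of Mcm5. IDs ending in _s_at, _x_at or _a_at, which can match several transcripts, held the brightest probe set of 6 of the genes.

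The first comparison asks whether these transcripts differ once REST is targeted. With the group as the only term in limma, the REST shRNA arrays exceeded the controls on 24 of the 25 probe sets, against 52.6% of all probe sets, yet no member passed. The median over the 10 genes was 0.45 (log2 difference, REST shRNA minus control), beside 0.01 over all probe sets. The count of members called was 0 at an adjusted p under 0.05, where 0% of all probe sets were called, and 0 at an unadjusted p under 0.05, where 3.46% were. The smallest unadjusted p among the 25 was 0.384, for Mcm2.

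The mean for Mcm2 was 6.24 ± 0.92 in the controls and 6.99 ± 1.58 with REST shRNA (SD, n = 3 each), a difference of 0.76 with a 95% confidence interval of -1.18 to 2.69. The other helicase subunits differed by 0.55 ± 0.89 (SE) for Mcm3, 0.22 ± 0.58 for Mcm4, 0.64 ± 1.17 for Mcm5, 0.35 ± 0.43 for Mcm6 and 0.16 ± 0.46 for Mcm7. Cdc6 differed by 0.69 ± 1.18, Gins2 by 0.63 ± 0.80 and Pcna by 0.13 ± 0.40. For Cdc45 the difference was -0.03 ± 0.19 on the brightest probe set and 0.52 ± 0.71 on the other. In this fit the standard error exceeded the difference for each of the 10 genes, and all 25 confidence intervals spanned 0. The intervals are wide: for Cdc6 it ran from -2.09 to 3.48 and for Mcm5 from -2.14 to 3.42. Changes of several fold either way were thus not detectable in this fit. It has 3 arrays per group and leaves the differences between replicate numbers in the error.

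The positive sign rested on single arrays. Without REST shRNA array 2 the median over the 10 genes was -0.29, and 23 of the 25 probe sets were negative. In that fit 1 of the 25 had an unadjusted p under 0.05, against 6.16% of all probe sets, namely that of Mcm4 at a difference of -0.51 (adjusted p = 0.808 in limma). Leaving out control array 3 gave a median of -0.05, leaving out control array 2 gave 0.74, and leaving out REST shRNA array 3 gave 0.88. With array weights, which gave REST shRNA array 2 a weight of 0.377 and control array 1 a weight of 3.13, it was -0.16.

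Within the replicate numbers the members went different ways. In the pair numbered 1 the REST shRNA array read lower on 23 of the 25 probe sets, with a median over the 10 genes of -0.56. In the pair numbered 2 it read higher on 24, with a median of 1.21. In the pair numbered 3 it read higher on 21, with a median of 0.24. Over all probe sets the medians of the 3 pairs were 0.00, 0.00 and 0.03. Mcm2 illustrates this with differences of -0.64, 1.94 and 0.98, and Mcm5 with -0.69, 1.19 and 1.42. With 1 array per group in each number, whether these differences differ from each other cannot be tested. Using the replicate number as a block, the smallest unadjusted p of a member was 0.097, for Gins2, and 0 of the 25 had one under 0.05, against 4.29% of all probe sets. With the block the standard error was 0.43 for Mcm5, 0.65 for Cdc6 and 0.32 for Gins2, each smaller than in the fit with group alone. Among the brightest probe sets it rose only for Cdc45, from 0.19 to 0.21. The difference then exceeded its standard error for Mcm2, Mcm3, Mcm5, Mcm6, Cdc6 and Gins2, and not for the rest.

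**Figure D3:**
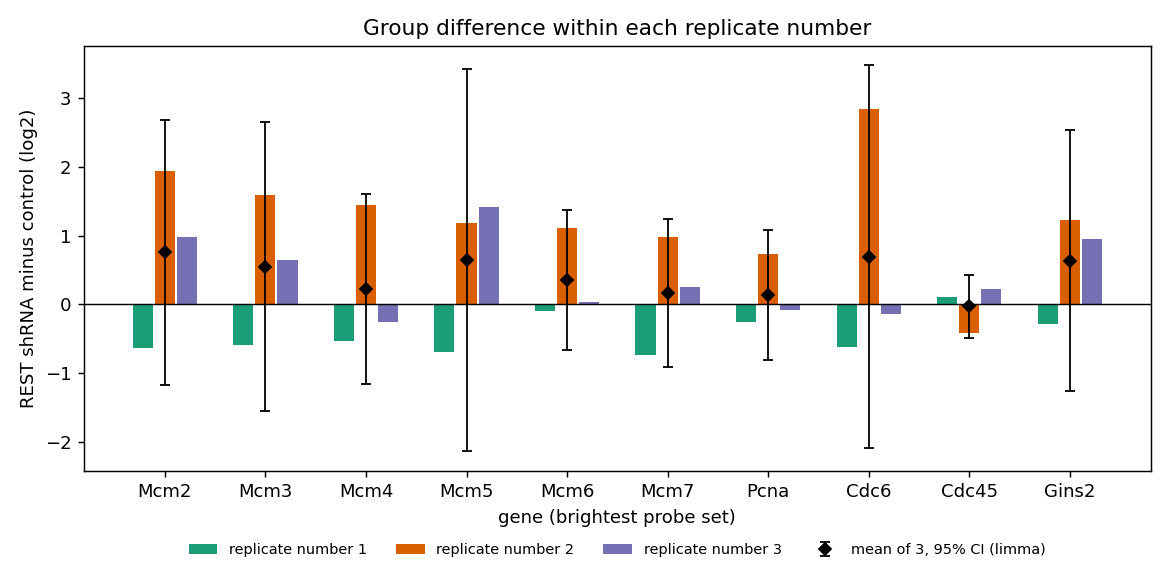
REST shRNA minus control (log2, y axis) for each gene (x axis), as bars for the arrays numbered 1, 2 and 3. A diamond marks their mean with its 95% confidence interval from limma with group as the only term. Bars of number 1 point down for 9 genes, bars of number 2 point up for 9, and all 10 intervals span 0.

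The targeted transcript behaved differently across the same arrays. The brightest of 4 Rest probe sets read 8.92, 8.75 and 8.90 in control and 8.63, 7.70 and 8.20 in REST shRNA, and the groups did not overlap on any of the 4. Its difference was -0.68 ± 0.25 (SE), with an unadjusted limma p of 0.0298 that did not survive adjustment over all probe sets. An exact two-sided permutation test gave p = 0.1, the lowest that 3 against 3 allows. REST shRNA array 2, the array with the highest licensing signals, had the lowest Rest signal on 3 of the probe sets, and their relation was not tested.

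The second comparison sets the arrays side by side by replicate number, in a limma fit with group and number as terms. Of the 25 probe sets, 19 had an unadjusted p under 0.05 for number, against 8.47% of all probe sets. None passed the adjusted threshold, where 0.00665% of all probe sets did, and the smallest adjusted p of a member was 0.256, for Mcm5. The 3 probe sets called in the whole table belonged to Fos, Fosb and Zfp36, immediate early genes named after their values were seen. They ran the other way, with Fos at 12.16 and 12.05 in control and REST shRNA arrays 3 and between 6.75 and 7.24 in the other 4.

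The widest gap was between numbers 2 and 3. Over the 10 genes the median of number 2 minus number 3 was 1.77, beside a median size of 0.24 over all probe sets. It was 1.16 between the control arrays and 2.37 between the REST shRNA arrays. In this contrast 23 of the 25 probe sets had an unadjusted p under 0.05 and were higher in number 2, against 5.86% of all probe sets, none was lower, against 5.63%, and none passed the adjusted threshold. Mcm5 was 11.4-fold higher in number 2 (log2 difference 3.51 ± 0.52, SE). Cdc6 was 8.58-fold higher (3.10 ± 0.80), Mcm3 5.77-fold (2.53 ± 0.50), Gins2 5.21-fold (2.38 ± 0.39) and Mcm2 4.51-fold (2.17 ± 0.58). Mcm4, Mcm6, Mcm7 and Pcna were 2.57-fold, 2.17-fold, 2.13-fold and 2.12-fold higher. Cdc45 differed by -0.10 ± 0.25 on its brightest probe set and by 2.09 ± 0.36 on the other.

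Number 1 lay between the others. Number 2 minus number 1 had a median of 1.03. Of the 25 probe sets, 11 were higher in number 2 at an unadjusted p under 0.05, against 2.49% of all probe sets. Most of the gap between numbers 1 and 2 lay in the REST shRNA arrays. Averaged over the brightest probe set of each licensing gene, REST shRNA array 1 stood at -0.32 and array 2 at 1.60 (log2 deviations). Control arrays 1 and 2 stood at 0.12 and 0.33. Number 3 minus number 1 had a median of -0.58, and 4 were lower in number 3, against 3.77%. Those 4 were the 2 brightest probe sets of Mcm5 and both of Gins2.

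The counts moved with single arrays. Without control array 2, which leaves REST shRNA array 2 alone in its number, 10 member probe sets of 7 genes passed the adjusted threshold, where 2.52% of all probe sets did. They were 4 of Mcm3 and 1 each of Mcm2, Mcm4, Mcm5, Mcm6, Cdc6 and Gins2. Without REST shRNA array 3, 12 member probe sets had an unadjusted p under 0.05, against 5.42% of all probe sets. Without REST shRNA array 2 the median of number 2 minus number 3 was 0.96 and 13 member probe sets had an unadjusted p under 0.05, against 7.77% of all probe sets, so the gap did not lie in that array alone.

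Dividing the sum of squares over the 6 arrays gives the same picture as a description. Replicate number held a median of 69.1% over the 10 genes and group 4.52%, beside 43.5% and 11.0% over all probe sets. The share of number was 86.6% for Mcm5, 82.4% for Gins2 and 80.3% for Mcm3. It was lowest for Cdc45, at 44.1% on the brightest probe set and 83.0% on the other. The largest share of group was 11.4%, for Mcm2.

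**Figure D4:**
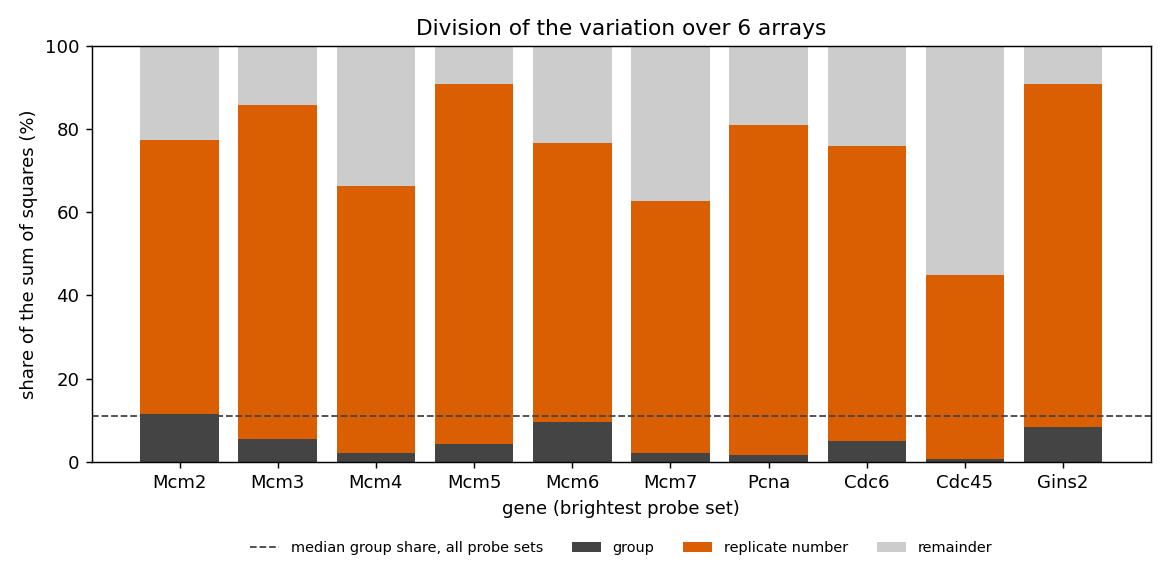
Share of the sum of squares over 6 arrays (y axis, percent) that lies between groups, between replicate numbers and in the remainder, for the brightest probe set of each gene (x axis). The share of group stays at or below 11.4% for all 10 genes, and the dashed line marks its median over all probe sets, 11.0%.

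Other replication and cell cycle genes were taken from 7 lists with 112 genes, of which 109 were measured. Between the groups none was called; at an unadjusted p under 0.05, 1 was higher, Pole3, and 1 lower, Rb1, against 1.69% and 1.04% of all genes (1.53% and 1.93% of all probe sets). Pole3, an accessory subunit of polymerase epsilon, differed by 0.60 ± 0.22 (SE, log2) and Rb1, which restrains E2F, by -0.50 ± 0.18 (limma adjusted p = 1.00 for both). For replicate number none was called either, against 0.0165% of all genes, while 61 had an unadjusted p under 0.05, against 8.66%. In number 2 against number 3, 76 were higher and 0 lower at that threshold, against 6% and 6.33% of all genes. REST shRNA array 2 was highest for 94, against 24.7%, and an array numbered 3 lowest for 87, against 35.7%.

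The 9 genes of origin recognition and loading had a median of 0.17 for number 2 minus number 3, and 3 were higher at an unadjusted p under 0.05. Orc2 and Mcmbp, the members with the smallest group p, differed between groups by 0.28 ± 0.20 and 0.30 ± 0.21. Geminin (Gmnn), which blocks relicensing, and its target Cdt1 had the smallest p for number. Gmnn differed by 2.25 ± 0.43 and Cdt1 by 2.44 ± 0.58 between numbers 2 and 3. Cdt1 read 7.13, 7.68 and 5.64 in control and 6.41, 9.53 and 6.69 in REST shRNA, the same order of extremes as Mcm2.

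The 12 genes of helicase activation and firing had a median of 1.51 between numbers 2 and 3. All 12 had REST shRNA array 2 highest and an array numbered 3 lowest. Gins1, a partner of Gins2 in the GINS complex, differed by 2.32 ± 0.40 and Mcm10, which helps to activate the helicase, by 3.03 ± 0.66. Gins4 differed between groups by 0.36 ± 0.19.

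Of 32 measured genes of polymerases, clamp loader and fork, 29 had REST shRNA array 2 highest, with a median of 1.02 between numbers 2 and 3. Timeless, of the fork protection complex, differed by 2.45 ± 0.45. Pole, the catalytic subunit of polymerase epsilon, read 5.17 and 6.76 in the arrays numbered 2, and 2.69 and 2.98 in those numbered 3, below the highest bacterial control, so no size is given for its difference. Pold2, a subunit of polymerase delta, differed between groups by 0.74 ± 0.41. In nucleotide supply the median was 1.62 over 7 genes, with Rrm2 of ribonucleotide reductase at 2.87 ± 0.34 and thymidine kinase Tk1 at 3.48 ± 0.59, while Tyms and Dtymk differed between groups by 0.68 ± 0.43 and 0.22 ± 0.19.

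The 18 G1/S genes had a median of 0.85 between numbers 2 and 3. Ccna2, cyclin A2, differed by 3.65 ± 0.45 and Ccnd1, cyclin D1, by 3.03 ± 0.54. Cdk6, a kinase partner of D cyclins, differed between groups by -1.16 ± 0.63, with REST shRNA array 1 at 4.76 and the others from 6.98 up.

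The 24 measured genes of G2 and mitosis had a median of 3.25 between numbers 2 and 3, and all 24 were higher at an unadjusted p under 0.05. Ube2c and Nusap1, both of mitosis, differed by 3.90 ± 0.33 and 3.19 ± 0.28. Between groups Cenpe and Mki67 differed by -0.67 ± 1.05 and -0.58 ± 1.13. The mean deviation of this list was 0.89, 0.93 and -1.67 in control arrays 1, 2 and 3 and 0.13, 1.83 and -2.11 in REST shRNA arrays. Control arrays 1 and 2 thus stood nearer to REST shRNA array 2 in mitosis genes than in licensing genes, where they read 0.12 and 0.33 against 1.60. In number 3 the REST shRNA array was the lower for mitosis genes and the higher for licensing genes. The difference between these lists was not tested.

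The 7 inhibitors of cyclin-dependent kinases had a median of 0.75 between numbers 2 and 3, and 4 of them were higher in number 2 at an unadjusted p under 0.05, against 6% of all genes. For 1 of them REST shRNA array 2 was highest, with a mean deviation of the list of -0.04 there, and all 7 differences between groups were negative, with a median of -0.28 and none at an unadjusted p under 0.05. Cdkn2a and Cdkn2b differed by -0.36 ± 0.25 and -0.35 ± 0.31. Cdkn2c, which is also expressed in cycling progenitors, differed by 1.58 ± 0.24 between numbers 2 and 3, and Cdkn1a by 0.88 ± 0.27.

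**Figure D5:**
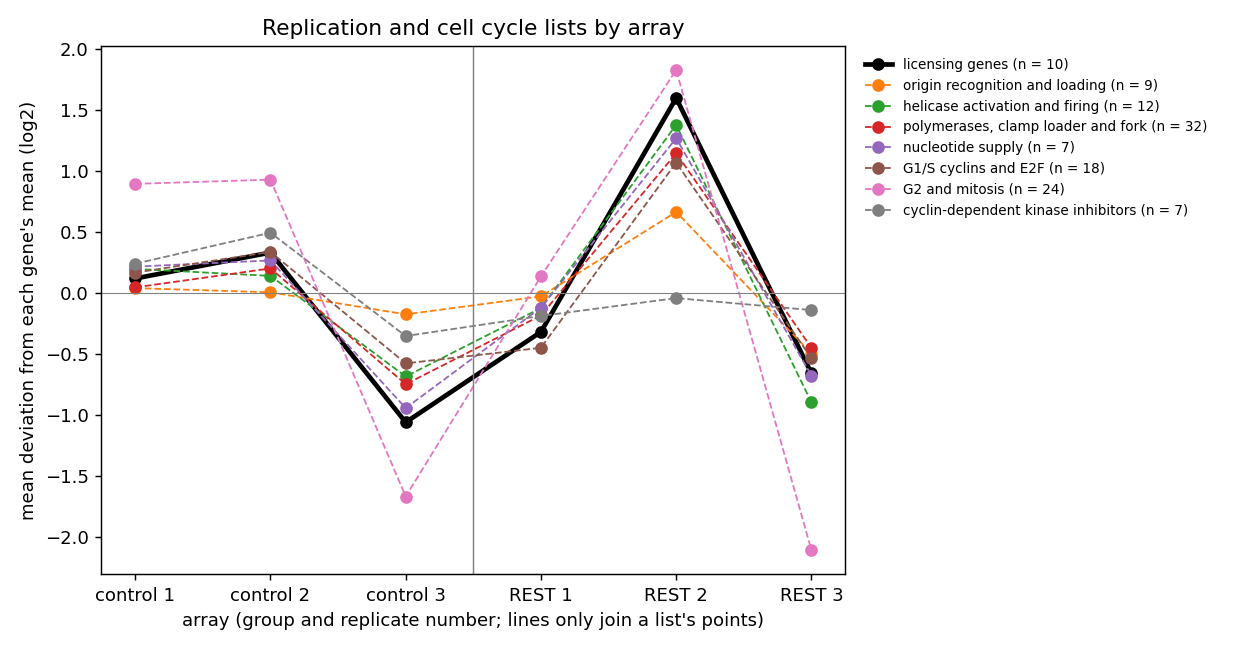
Mean deviation of each list from its genes' own means (y axis, log2) on each of the 6 arrays (x axis), for the 10 licensing genes (solid) and 7 other lists (dashed). The licensing genes reach 1.60 in REST shRNA array 2 and -1.06 in control array 3, and the mitosis genes 1.83 and -1.67.

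Outside all lists, the genes whose pattern over the 6 arrays was closest to the mean of the licensing genes were P2rx7, Sorcs1, Rhox5, Tpm3, Aacs, 4933432K03Rik, Tinf2 and Tube1. Their Pearson r lay between 0.993 and 0.994, as a description over 6 arrays that share number and group. They were picked from 10129 genes, of which 595 had an r above 0.9. P2rx7, a purinergic receptor, read 6.78, 7.15 and 5.92 in control and 6.41, 8.34 and 6.21 in REST shRNA. Each member is part of the mean it was compared with, and for 9 of the 10 members r ran from 0.927 for Mcm4 to 0.992 for Mcm3, while Cdc45 was at -0.50.

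Markers of cell types and RNA quality varied over the same arrays. All 10 neural progenitor markers were above the highest bacterial control, and their mean level was 10.56 to 10.62 in control and 10.24 to 10.57 in REST shRNA (log2). The lowest array was REST shRNA array 2 for 8 of the 10, and it was highest for 1, nestin (Nes), named after its values were seen, which read 8.39, 8.57 and 6.87 in control and 7.95, 9.99 and 6.81 in REST shRNA. All 8 astrocyte markers were above it, at 8.99 to 9.35 in control, 9.30 and 9.19 in REST shRNA arrays 1 and 3, and 7.42 in REST shRNA array 2, where 7 of the 8 were lowest. Of 7 measured oligodendrocyte lineage markers 6 were above it, all but Mog, at 8.23 to 8.61 in control and 8.76, 7.47 and 9.30 in REST shRNA arrays 1, 2 and 3. All 10 neuron markers were above it, at 7.92 to 8.29 in control and 9.03, 8.26 and 9.11 in REST shRNA. Markers of microglia and blood, of vessels and of fibroblasts averaged between 3.28 and 4.07 on every array, with 5, 4 and 4 of 8 above the bacterial control. Single markers in these lists were well above it: Acta2, of smooth muscle, read 3.55 to 4.07 in control array 3 and REST shRNA arrays 1 and 3 and was higher in the other 3, up to 8.49 in control array 1, and Fn1 read 6.28 to 8.71. Gapdh signal from the 3' end exceeded that from the 5' end by 2.87 in control array 3 and 2.25 in REST shRNA array 3, and by 1.72 to 1.94 in the other 4 (log2). The same excess for actin was 0.34, 0.32 and 0.37 in control arrays 1, 2 and 3. It was 0.25, 0.37 and 0.32 in the REST shRNA arrays, so actin did not set the arrays numbered 3 apart. The part of these values in the licensing signals was not tested, and in bulk RNA fewer cycling cells and less RNA per cell cannot be told apart.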

How the data were processed

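The deposited series table gives log2 signals per probe set for 6 one-colour Affymetrix arrays. The unit was read from the range, 1.00 to 14.2. How the authors corrected background, summarised probes and normalized is not given in the sources used here. Once sorted, the values of each array lay 0.0224 on average from their common mean, so no further scaling was applied, and differences are relative to the other probe sets of an array.

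Genes came from the platform annotation, with 34958 probe sets naming 1 gene, 932 naming several (left out as members) and 9211 unlisted. A gene's brightest probe set has the highest mean over 6 arrays. limma 3.58.1 in R 4.3.3 (lmFit, eBayes, two-sided, Benjamini-Hochberg over 45101 probe sets) was fitted with group alone (4 residual and 2.9 prior degrees of freedom), and with group and replicate number for the number F test (2 and 3.95). Calls use an adjusted p under 0.05. The scripts were tested on simulated data.

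Same-numbered arrays' deviations from their group means correlated at 0.117, 0.282 and 0.402 over probe sets for numbers 1, 2 and 3, all above 0.1, so the numbers, from the titles, were taken to pair the arrays. The highest correlation of control array 1 was instead with REST shRNA number 2, at 0.231, so the pairing of number 1 rests on the titles.

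Members and lists were chosen with earlier results of these data known. Named beyond the members were Rest, the 2 genes per list with the smallest p for each comparison, and the 8 genes most alike in pattern, passing over predicted gene models. Of 112 other listed genes, 109 were analysed here. Alternatives were median centring, quantile normalization, a filter on dim probe sets, other choices of probe set, an intensity trend, array weights, the replicate block, and dropping single arrays. Dropping both arrays with the same number was added after seeing the data.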

Additional observations from a re-analysis of the deposited data

How the results depend on the processing

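No probe set was called between the groups, and no member, under any alternative run with limma. With the replicate block both counts were 0. The median difference over the licensing genes was again 0.45, since in this balanced layout a block cannot change it. Leaving out single arrays gave 0 calls between groups throughout, and medians from -0.29 to 0.88. The median of number 2 minus number 3 ranged from 0.96 to 2.56 when single arrays were left out. The probe sets called for replicate number were 3, and 1 with quantile normalization, 12 above the highest bacterial control, 103 with an intensity trend, and 0 to 1137 without single arrays. Members called for number were 0 in all of these except without control array 2, with 10, a range of 0 to 10. Members at an unadjusted p under 0.05 for number were 19 of 25 (8.47% of all probe sets), 7 of 10 with 1 probe set per gene (8.65%), 10 of 12 without IDs ending in _s_at, _x_at or _a_at (8.47%), and 12 to 23 of 25 without single arrays (5.42% to 17.3%); the smaller counts of the first 2 settings come with fewer probe sets.

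Signs of single genes between the groups turned often. Array weights gave 0.014 for Cdc45, -0.16 for Cdc6, -0.052 for Gins2, -0.027 for Mcm2, -0.19 for Mcm3, -0.20 for Mcm4, -0.37 for Mcm5, -0.30 for Mcm7 and -0.16 for Pcna. Median centring gave 0.0087 for Cdc45. Without both arrays numbered 2 the values were 0.16 for Cdc45, -0.39 for Cdc6, -0.39 for Mcm4, -0.034 for Mcm6, -0.25 for Mcm7 and -0.17 for Pcna. Without single arrays the differences ranged from -0.15 to 0.13 for Cdc45, -0.76 to 1.54 for Cdc6, -0.10 to 1.20 for Gins2, -0.15 to 1.25 for Mcm2, -0.43 to 1.07 for Mcm3, -0.51 to 0.60 for Mcm4, -0.52 to 1.41 for Mcm5, -0.15 to 0.68 for Mcm6, -0.34 to 0.44 for Mcm7 and -0.30 to 0.45 for Pcna. The cause was not tested. The 3 arrays per group, and signals near background for Cdc6 and Pole, limit these values.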
